A study of Mus musculus with 4 samples.

Results

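Cubn-high endoderm is a group of 273 cells among the 677 barcodes of the Reactivated library, and among 14529 barcodes in the whole series. A cell of at least 1000 UMIs (counted RNA molecules) was classed as endoderm when its UMIs of Col4a1, Lamb1, Sparc, Srgn, Gata4, Sox17 and Cubn summed to at least 10 and exceeded both an epiblast sum (Sox2, Tdgf1, Nanog, Fgf4, Slc7a3) and a trophoblast sum (Gata2, Gata3, Tspan8, Cdx2, Rhox6). Of the 305 endoderm cells of Reactivated, the 273 with at least 10 UMIs of Cubn are the Cubn-high cells and the other 32 are called Cubn-low. Since the rule reads UMIs of these same cells, differences between the classes are descriptions and support nothing by themselves. The mirrored rules gave 201 epiblast and 97 trophoblast cells, and 74 barcodes took no class.

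All libraries are single-cell RNA libraries of whole wild-type B6C3F1/J mouse embryos, captured on the BD Rhapsody microwell system. Reactivated is labelled EDG9.5 followed by 30 h of E2. EDG7.5 and EDG9.5 are labelled with no E2, and these 3 libraries each pooled 200 to 250 embryos flushed from the uterus. E5.5 pooled 50 embryos that were dissected out of their implantation sites. The labels do not spell out EDG or E2, and E4.5, which they also name, was not analysed here. Each stage is 1 library, so stage and library cannot be told apart, cells are not replicates, and no test was made. Intervals below are 95% intervals that cover counting error only.

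Visceral endoderm is the epithelium that covers the epiblast and takes up nutrients from its surroundings, and parietal endoderm is its migratory sister, which secretes basement membrane. Both come from the primitive endoderm of the blastocyst. Cubn encodes cubilin, a large peripheral receptor that binds its ligands at the apical surface, and Amn encodes amnionless, which anchors cubilin in the membrane. Lrp2 encodes megalin, a transmembrane receptor that is internalized with them, and Dab2 an adaptor that links such receptors to clathrin. In diapause the blastocyst pauses in the uterus before it implants, and growth resumes when the pause is lifted.

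The Cubn-high cells had between 4943 and 38917 UMIs each, with a median of 14609. The medians of the comparison groups were 9996 UMIs in Cubn-low, 12616 in epiblast and 13049 in trophoblast cells of Reactivated, and 5164 in EDG7.5 endoderm, 3701 in EDG9.5 endoderm and 9562 in E5.5 Cubn-high cells. Mitochondrially encoded genes held a median of 6.10% of UMIs in Cubn-high and 6.72% in Cubn-low cells. Of the 273 Cubn-high barcodes, 5 also occur in another library. Scrublet called 1 barcode of Reactivated a doublet, and it is a Cubn-high cell. Among markers of other cells, haemoglobin and other erythroid genes were at 0 UMIs in Cubn-high cells, the immune list summed to 4.61 CPM (UMIs of a gene scaled to the same total in each class) and the decidual stroma list to 6.23 CPM. The uterine epithelium list summed to 166 CPM, led by Elf3, and the endothelium list to 160 CPM, led by Egfl7; their part in the results was not tested.

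The name visceral endoderm was checked against marker lists. Of 13 visceral endoderm markers 12 had UMIs in the Cubn-high cells, and the list summed to 8351 CPM there, against 4829 CPM in Cubn-low cells. In epiblast and in trophoblast cells 11 of the 13 also had UMIs, so presence alone does not tell the classes apart. The secreted products that mark mature visceral endoderm were scarce: Afp (alpha-fetoprotein) had 0 UMIs and Apoa1 (apolipoprotein A-I) 4.15 CPM. Of 11 parietal endoderm markers 10 had UMIs, all but Thbd, and that list summed to 11999.5 CPM in Cubn-high cells, against 10626.7 CPM in Cubn-low cells. In epiblast and in trophoblast cells 9 of these 11 had UMIs. Both lists hold genes of the class rule: without Cubn, the 12 other visceral markers summed to 6815 CPM in Cubn-high cells, 4429 CPM in Cubn-low cells and 692 CPM in epiblast. Without Sparc, Srgn, Col4a1 and Lamb1, the 7 other parietal markers summed to 1698 CPM in Cubn-high cells, 1269 CPM in Cubn-low cells and 38.9 CPM in epiblast. These visceral and parietal lists without rule genes summed to 12961 and 1521 CPM in E5.5 Cubn-high cells, and to 1870 and 2257 CPM in EDG9.5 endoderm. UMIs of both types were therefore not particular to the Cubn-high cells of Reactivated. Since the sums of both lists were above those of epiblast, the name visceral endoderm is not used and the cells are called Cubn-high endoderm. The epiblast list summed to 1667 CPM in Cubn-high cells, with Sox2 at 3.0 CPM and Tdgf1 at 3.0 CPM, against 8640 CPM in epiblast cells.

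Cubn-high cells made up 0.515% of endoderm cells in EDG7.5 (3 of 582), 2.41% in EDG9.5 (21 of 871), 89.5% in Reactivated (273 of 305) and 72.2% in E5.5 (2341 of 3240). The exact binomial intervals were 0.106 to 1.5%, 1.5 to 3.66%, 85.5 to 92.7% and 70.7 to 73.8% in the same order. Because a fixed number of UMIs is reached more easily in a deep cell, every cell was also thinned to 5000 UMIs and the limit set to 4 UMIs of Cubn, which left out shallower cells. The shares were then 1.30%, 11.8%, 82.8% and 85.5%. Both ways EDG7.5 and EDG9.5 were far below Reactivated and E5.5, while the order of Reactivated and E5.5 turned round when depth, limit and the cells kept were changed together. With cells at their own depth, a Cubn UMI was found in 1.99% of epiblast cells (4 of 201) and in 3.09% of trophoblast cells (3 of 97). These shares serve as a background for Cubn alone. For other genes the shares differ, and a Dab2 UMI was found in 17.9% of epiblast and 36.1% of trophoblast cells.

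The limit of 10 UMIs cuts a continuous range. The 29 cells with 10 to 12 UMIs of Cubn had 968 CPM of Cubn and 950.1 CPM of Lrp2, and the 9 cells with 7 to 9 UMIs had 626 CPM of Cubn and 576 CPM of Lrp2. Of the 32 Cubn-low cells, 6 had no Cubn UMI and 17 had 5 to 9. After thinning, 5 of 31 Cubn-low cells reached 4 UMIs of Cubn and 26 of the 272 Cubn-high cells did not. The median depth was 14609 UMIs in Cubn-high and 9996 UMIs in Cubn-low cells, and its part in the split was not tested. The 10 cells with 0 to 2 UMIs of Cubn differed most, with 236 CPM of Lrp2, 1592 CPM of Dab2, 1356 CPM of Lamc1 and 6830 CPM of Sparc. These 10 cells include the barcode with UMIs of connective tissue collagens that is described below, and its part in these values was not tested.

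The 5 marker genes of these cells are Cubn (chr2:13276338-13491876), Lrp2 (chr2:69424335-69586029), Amn (chr12:111271096-111276426), Cldn6 (chr17:23679348-23682446) and Cited1 (chrX:102247378-102252181), with gene spans from RefSeq on GRCm38.p6. Cubn, the gene that chose the cells, had 10 to 100 UMIs per Cubn-high cell with a median of 22, and at most 9 in a Cubn-low cell. Summed over cells, Cubn was at 1535 CPM in Cubn-high cells, 399.9 CPM in Cubn-low cells, 2.75 CPM in epiblast and 2.23 CPM in trophoblast. Across libraries it was at 78.3 CPM in EDG7.5 endoderm, 168 CPM in EDG9.5 endoderm, 1535 CPM in Reactivated Cubn-high cells and 2269 CPM in E5.5 Cubn-high cells. Each step of that last order is wider than its counting intervals, but the E5.5 and Reactivated cells were taken by their Cubn UMIs and the EDG cells were not.

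Lrp2 followed Cubn. It was at 1414 CPM in Cubn-high cells, 441 CPM in Cubn-low cells and 48.0 CPM in epiblast, a ratio of Cubn-high to Cubn-low of 3.21 (2.74 to 3.77). In the libraries Lrp2 was at 225 CPM in EDG7.5 endoderm, 293 CPM in EDG9.5 endoderm, 1414 CPM in Reactivated Cubn-high cells and 1390.0 CPM in E5.5 Cubn-high cells. The E5.5 over Reactivated ratio of Lrp2 was 0.983 (0.956 to 1.01), an interval that holds 1. Amn was split less by the Cubn limit. It had 1092 CPM in Cubn-high and 830.2 CPM in Cubn-low cells, a ratio of 1.31 (1.17 to 1.48), with 210 CPM in EDG9.5 endoderm and 854 CPM in E5.5 Cubn-high cells.

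Cldn6, a tight junction claudin, and Cited1, a transcriptional co-regulator, were the markers lowest in both EDG libraries relative to Reactivated. Cldn6 was at 8.43 CPM in EDG7.5 endoderm, 25.8 CPM in EDG9.5 endoderm, 839.8 CPM in Reactivated Cubn-high cells and 1050.0 CPM in E5.5 Cubn-high cells. Cited1 was at 9.94 CPM, 22.8 CPM, 860.5 CPM and 1142 CPM in the same 4 groups. A UMI of Cldn6 was found in 97.8% of Cubn-high cells, against 75% of Cubn-low, 59.2% of epiblast and 29.9% of trophoblast cells, so Cldn6 UMIs were also common in epiblast cells. For Cited1 these shares were 97.4% of Cubn-high, 56.2% of Cubn-low, 5.47% of epiblast and 8.25% of trophoblast cells.

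**Figure D1:**
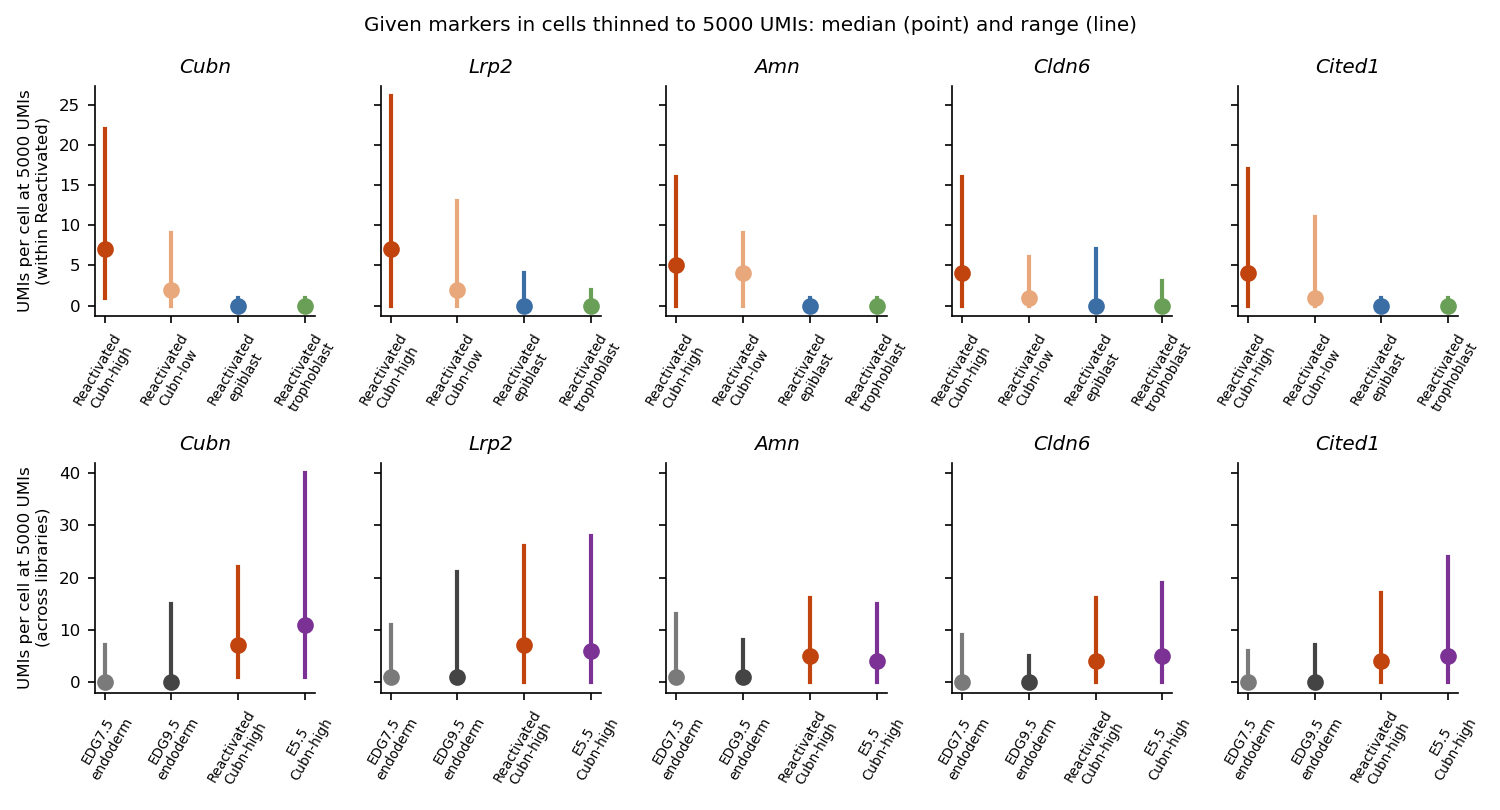
UMIs of the 5 marker genes per cell after thinning each cell to 5000 UMIs (y axis), as the median (point) and the lowest to highest cell (line). The upper row gives the classes of Reactivated and the lower row endoderm across libraries: Cubn-high cells have a median of 7 Cubn UMIs, Cubn-low cells 2 and epiblast cells 0, and across libraries the medians of Cubn are 0 for both EDG libraries, 7 for Reactivated and 11 for E5.5.

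Cubn-high over Cubn-low describes the range that the Cubn limit cuts, with 4336773 against 362577 UMIs in the sums. Ratios are on log2(CPM + 10) unless a plain ratio is given, and a gene is counted as 2-fold when it passes 1 on that scale. Of 10913 genes with at least 10 UMIs, 1.37% were 2-fold higher and 1.23% 2-fold lower in Cubn-high cells. After Cubn and Lrp2, the 12 highest genes of the naming rule include Rcan1 (a calcineurin inhibitor), Iqgap2 (a scaffold of the actin cytoskeleton), Golga4 (a golgin of the trans-Golgi) and Gpc3 (a heparan sulphate proteoglycan). Hyou1, Derl3 and Sel1l are also among the 12, and all of these serve the folding or disposal of proteins in the endoplasmic reticulum. Hyou1 was at 134 CPM in Cubn-high and 46.9 CPM in Cubn-low cells, a ratio of 2.86 (1.77 to 4.94). Derl3 was at 231 CPM in Cubn-high and 88.3 CPM in Cubn-low cells, a ratio of 2.62 (1.84 to 3.85). Sel1l was at 209 CPM in Cubn-high and 82.7 CPM in Cubn-low cells. Rcan1 was at 110.2 CPM in Cubn-high and 35.9 CPM in Cubn-low cells, and Iqgap2 at 133.5 CPM in Cubn-high and 46.9 CPM in Cubn-low cells. Over the processing settings tried, log2 ratios ranged from 0.65 to 1.49 for Hyou1, 0.58 to 1.88 for Derl3 and 0.53 to 1.66 for Sel1l. Those of Rcan1 ranged from 0.35 to 1.59 and those of Iqgap2 from 0.72 to 1.68. With a limit of 20 Cubn UMIs, 0 of the 149 higher genes stayed 2-fold higher.

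The lower genes rest largely on 1 barcode. Col3a1, Col1a2, Dcn and Col1a1, which encode matrix proteins of connective tissue, had 380 UMIs in 1 Cubn-low barcode of 8533 UMIs with no Cubn UMI, against 1 UMI in all other Cubn-low cells and 5 UMIs in all Cubn-high cells. Lgals1, S100a6, Tmsb4x and Vim were also concentrated there. Without that barcode, an alternative chosen after seeing the data, 64 genes were 2-fold lower, against 134 with it, and 60 of the 64 are among the 134. Higher genes then numbered 157, of which 139 are among the 149 found with all cells. Among the named lower genes, Klhl7 (an adaptor of a ubiquitin ligase) stayed at a log2 ratio of -2.32 without the barcode, Ahnak (a large scaffold protein) at -1.71 and Ifitm2 at -1.26. Klhl7 was at 23.1 CPM in Cubn-high cells and 154 CPM in Cubn-low cells. At own depth a Klhl7 UMI was found in only 25% of Cubn-low and 12.8% of Cubn-high cells. Over the processing settings tried, its log2 ratio ranged from -2.69 to -0.51.

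In the gene lists, only a few members passed 2-fold between Cubn-high and Cubn-low cells. Of 16 measured endocytic receptors and adaptors, 2 were higher, Cubn and Lrp2, and 1 was lower, Clu, with a list median of 0.39, against 0.04 over all measured genes. None of 8 apical membrane genes passed 2-fold, with a median of 0.46, and none of 12 lipoprotein and secreted genes, with a median of 0.44. Of 12 naive pluripotency genes 3 were lower, and the list median was -0.66. These 3 were Esrrb (7.15 CPM in Cubn-high, 35.9 CPM in Cubn-low cells), Tbx3 (89.2 and 207 CPM) and Nr0b1 (15.7 and 93.8 CPM), transcription factors of the naive state. Sox17, an endoderm transcription factor that is part of the class rule, was at 126 CPM in Cubn-high and 325 CPM in Cubn-low cells. The basement membrane list had 2 lower members of 17, Vim and Fstl1, and its median of -0.11 became 0.09 without the single barcode.

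Genes of the endoplasmic reticulum (ER) stood out among the named genes, so 31 of them were listed after those values were seen. The ER folds secreted and membrane proteins, and its chaperones and disposal machinery are induced together by the unfolded protein response. The promoters of several such genes carry the ER stress response element, CCAAT and CCACG separated by 9 bases, which ATF6 and NF-Y are known to bind. The element, spelled CCAAT, then any 9 bases, then CCACG, was searched on both strands in the 250 bases before each RefSeq gene start and was found for 9 of the 26 listed genes that have a promoter entry (34.6%) and for 35 of all 27025 genes with one (0.13%). The list was picked from the type of gene in which this element is known, so nothing is read from the larger share. A match is a description of these letters and no evidence of binding. The 4 sequences below are shown because their genes are among those highest in Cubn-high cells. They are the 250 bases before the RefSeq gene start on GRCm38.p6, 5′ to 3′ on the strand of the gene, with the element in capitals on whichever strand it lies.
Hspa5 (chr2:34771840-34772089, plus strand): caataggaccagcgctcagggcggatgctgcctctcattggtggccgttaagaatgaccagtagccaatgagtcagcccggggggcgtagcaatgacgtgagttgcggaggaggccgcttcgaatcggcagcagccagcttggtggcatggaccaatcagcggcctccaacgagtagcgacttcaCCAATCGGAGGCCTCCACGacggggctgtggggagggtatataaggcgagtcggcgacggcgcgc
Hsp90b1 (chr10:86705445-86705694, minus strand): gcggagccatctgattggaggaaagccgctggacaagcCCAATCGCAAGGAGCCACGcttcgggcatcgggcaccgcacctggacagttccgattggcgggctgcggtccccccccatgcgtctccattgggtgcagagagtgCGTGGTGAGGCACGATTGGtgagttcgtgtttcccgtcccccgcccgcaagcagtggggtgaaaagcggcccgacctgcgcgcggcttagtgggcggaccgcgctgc
Creld2 (chr15:88819396-88819645, plus strand): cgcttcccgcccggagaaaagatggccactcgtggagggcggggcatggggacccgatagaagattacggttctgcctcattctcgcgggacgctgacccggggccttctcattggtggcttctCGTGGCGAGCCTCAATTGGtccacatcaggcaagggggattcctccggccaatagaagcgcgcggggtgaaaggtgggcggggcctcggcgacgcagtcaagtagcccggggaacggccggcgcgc
Derl3 (chr10:75893148-75893397, plus strand): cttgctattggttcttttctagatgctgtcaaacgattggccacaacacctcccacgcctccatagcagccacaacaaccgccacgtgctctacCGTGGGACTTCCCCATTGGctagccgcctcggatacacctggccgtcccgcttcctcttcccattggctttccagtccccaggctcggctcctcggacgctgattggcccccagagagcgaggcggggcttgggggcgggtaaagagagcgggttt

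Hspa5 encodes BiP, the main chaperone of the ER. It was at 4821 CPM in Cubn-high cells, 3133 CPM in Cubn-low cells, 1404 CPM in epiblast and 859.7 CPM in trophoblast. Endoderm of EDG7.5 had 2005 CPM of Hspa5, that of EDG9.5 had 1966 CPM, and Reactivated and E5.5 Cubn-high cells had 4821 and 1938 CPM. Hspa5 was thus highest in Reactivated, and the other 3 libraries had like levels in these sums. Among thinned E5.5 Cubn-high cells, Hspa5 was at 3500 CPM in those high in laminin UMIs and 1748 CPM in those low, a split described below. The same split of Reactivated Cubn-high cells gave 5119 and 4735 CPM. Hsp90b1, which encodes the chaperone GRP94, was at 3944 CPM in Cubn-high cells, 2223 CPM in Cubn-low cells, 1402 CPM in epiblast, 1102 CPM in EDG9.5 endoderm and 2156 CPM in E5.5 Cubn-high cells. Creld2, a secreted ER protein, was at 986 CPM in Cubn-high cells and 529.5 CPM in Cubn-low cells. Creld2 had 166 CPM in epiblast, 105 CPM in EDG9.5 endoderm and 189 CPM in E5.5 Cubn-high cells. Derl3, a member of the derlin family of ER-associated degradation, had 231 CPM in Cubn-high cells, 88.3 CPM in Cubn-low cells, 41.3 CPM in epiblast, 0.743 CPM in trophoblast, 18.0 CPM in EDG9.5 endoderm and 9.60 CPM in E5.5 Cubn-high cells.

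Across the 31 ER genes, 24 were highest in Reactivated Cubn-high cells among the 7 classes measured. Over all genes with at least 10 UMIs in these classes 6.35% were highest there, and over genes that reach 100 CPM in a class 10.8%. The list was drawn up after high values of some members were seen, so nothing is read from its count. The 7 exceptions are Canx, Dnajb9, Sil1, Derl2, Atf4, Ddit3 and Sec61b. Summed, the 31 genes made up 28675 CPM in Cubn-high cells, 19417 CPM in Cubn-low cells, 9622 CPM in epiblast, 10413 CPM in EDG9.5 endoderm and 14562 CPM in E5.5 Cubn-high cells. Between Cubn-high and Cubn-low cells 4 of the 31 were 2-fold higher and none lower, with a median of 0.49. Ddit3, which encodes the stress factor CHOP, did not follow: it was at 21.9 CPM in Cubn-high cells, 38.6 CPM in Cubn-low cells and 79.5 CPM in EDG9.5 endoderm. Atf4, a factor of the same stress arm, was at 304 CPM in Cubn-high cells, 323 CPM in Cubn-low cells and 428 CPM in EDG9.5 endoderm.

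**Figure D2:**
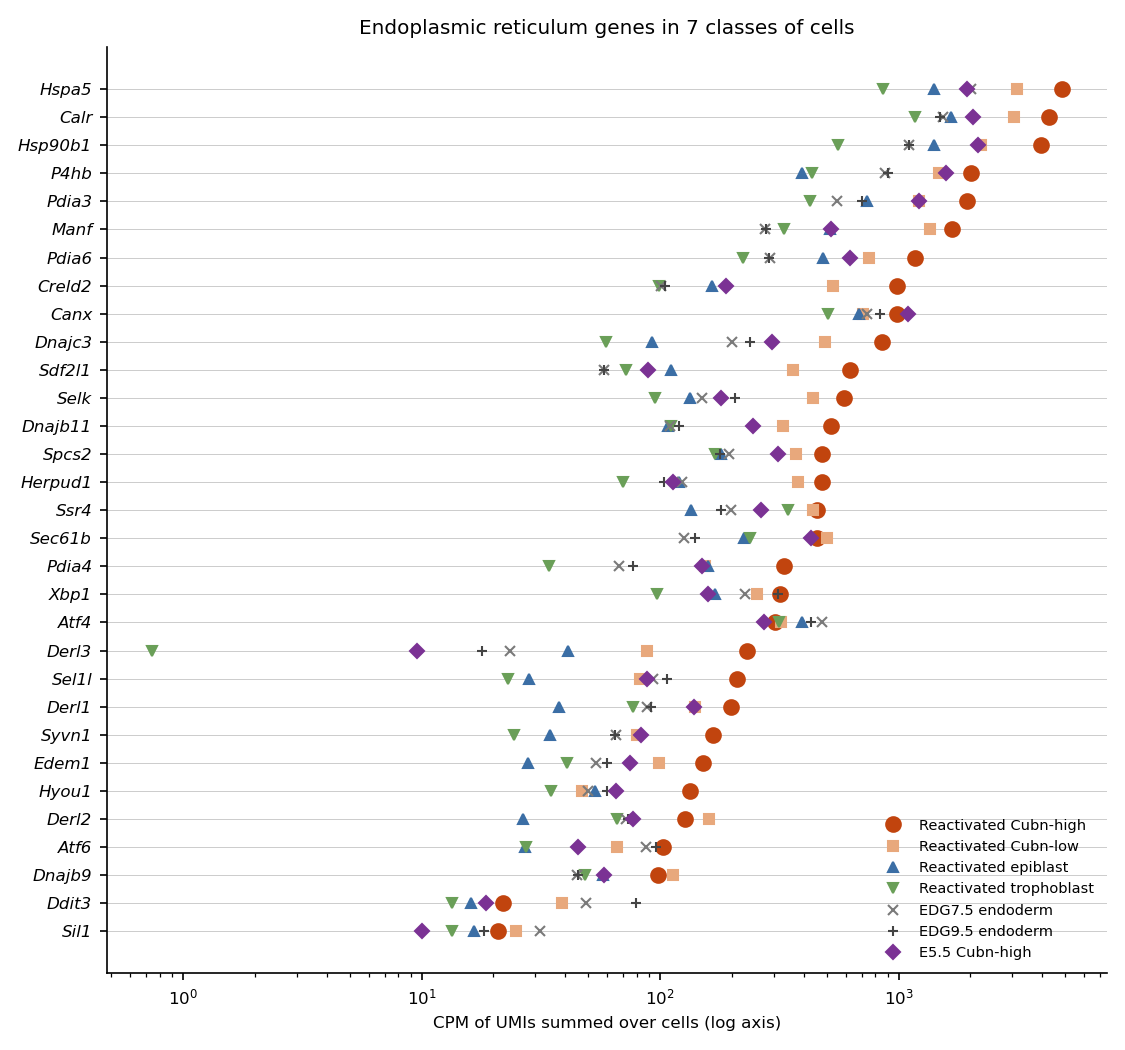
CPM (log axis) of 31 endoplasmic reticulum genes, 1 per line, in 7 classes of cells, each point a sum over the cells of a class. The large points of Reactivated Cubn-high cells lie farthest right for 24 of the 31 genes, and Derl3 spans the range between 0.743 CPM in trophoblast and 231 CPM in Cubn-high cells.

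Cubn-high endoderm and epiblast come from the same library, and the class rule itself used genes of both. Of 12182 measured genes 11.1% were 2-fold higher and 8.75% 2-fold lower in Cubn-high cells. The highest named genes outside the rule were Dab2 at 4021 CPM in Cubn-high cells and 15.7 CPM in epiblast, Amn at 1092 and 5.11 CPM, Cited1 at 860.5 and 4.72 CPM, Amot (angiomotin, a regulator of Hippo signalling at junctions) at 800.4 and 1.97 CPM, and Foxq1, a forkhead transcription factor, at 730.0 and 3.93 CPM. The lowest outside the rule were Trh (a neuropeptide precursor) at 0.692 CPM in Cubn-high cells and 516 CPM in epiblast, Igfbp2 at 0.922 and 484 CPM, Morc1 at 1.84 and 347 CPM, and Otx2 at 9.22 and 516 CPM.

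Of 16 measured endoderm transcription factors 12 were higher in Cubn-high cells than in epiblast and none lower, with a median of 3.28. Hnf4a, one of these factors, was at 84.9 CPM in Cubn-high cells and 0.393 CPM in epiblast. The basement membrane list had 13 of 18 members higher and 2 lower (Vim and Fstl1), with a median of 2.68. Serpinh1, the collagen chaperone, was at 2677 CPM in Cubn-high cells and 81.0 CPM in epiblast. Of 21 lysosomal genes 12 were higher and none lower, with a median of 1.68, and the list summed to 10173 CPM in Cubn-high cells and 2165 CPM in epiblast. Ctsl, a cathepsin, was at 3449 CPM in Cubn-high cells and 222 CPM in epiblast, and Lgmn, the protease legumain, at 414 and 15.3 CPM.

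Endocytic receptors and adaptors had 6 of 17 members higher than in epiblast and 1 lower, Tfrc, the transferrin receptor, at 3.69 CPM in Cubn-high cells and 66.5 CPM in epiblast. Of the 31 ER genes 24 were higher and none lower, with a median of 1.68. S phase genes went the other way, with 7 of 18 lower and none higher. FGF pathway genes were mixed, with 4 of 15 higher, Fgfr3 and Fgfr4 among them, and 6 lower. Fgf4, a ligand of the epiblast and part of the class rule, was at 0.461 CPM in Cubn-high cells and 209 CPM in epiblast. Fgfr3 was at 29.3 CPM in Cubn-high cells and 0.393 CPM in epiblast, and Fgfr4 at 22.8 and 1.18 CPM.

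Set against EDG9.5 endoderm, 5.56% of 12577 genes were 2-fold higher in Reactivated Cubn-high cells and 10.6% lower. This comparison depends on scaling: 699 genes were higher and 1335 lower as CPM, but 1170 higher and 888 lower with TMM factors, which moved the median of all genes from -0.16 to -0.02. EDG9.5 cells were also shallower, and EDG9.5 had too few Cubn-high cells (21) for a sum of their own. Ratios below are to be read against that median, and the part of depth in them was not tested.

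Cited1 and Cldn6, given above, led the higher genes. Has2, a hyaluronan synthase, was at 109.5 CPM in Reactivated Cubn-high cells and 2.42 CPM in EDG9.5 endoderm, a ratio of 45.3 (23.7 to 99.8). Cyp26a1, which breaks down retinoic acid, was at 167 CPM in Reactivated Cubn-high cells and 4.83 CPM in EDG9.5 endoderm, a ratio of 34.6 (21.7 to 58.7). Ldha, the lactate dehydrogenase of glycolysis, was at 1253 and 95.8 CPM, a ratio of 13.1 (11.7 to 14.6). Tfec, a transcription factor of the MiT family, was at 233 and 13.4 CPM, and Dpp4, a cell surface peptidase, at 209 and 11.8 CPM. EDG7.5 endoderm was also below Reactivated in each of these, with 0.301 CPM of Has2, 9.63 CPM of Cyp26a1, 96.3 CPM of Ldha, 2.11 CPM of Tfec and 4.21 CPM of Dpp4.

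Among the lower genes, Pramel7, a gene of the naive state, had 0 UMIs in Reactivated Cubn-high cells and 165 CPM in EDG9.5 endoderm, which is at least 238-fold lower when its 0 is replaced by a floor of 3 UMIs in the class. Esrrb was at 7.15 CPM in Reactivated Cubn-high cells and 238 CPM in EDG9.5 endoderm. Nr0b1 was at 15.7 and 377 CPM, and the naive pluripotency list had 11 of 13 members lower and none higher, with a median of -2.02. Pros1, which encodes protein S of the clotting system, was at 48.9 CPM in Reactivated Cubn-high cells and 1025 CPM in EDG9.5 endoderm. Ahnak was at 17.3 and 737 CPM, and Marcks, a substrate of protein kinase C at the membrane, at 79.3 and 1248 CPM. Xist was at 45.9 CPM in Reactivated Cubn-high cells and 756 CPM in EDG9.5 endoderm. The strand setting of the counts is not given in the sources used here, so reads of Xist and of the overlapping Tsix cannot be told apart.

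Cell cycle and metabolism lists differed in how many members were higher. Of 22 G2 and M phase genes 17 were higher and none lower, with a median of 1.57. Ube2c, which targets cyclins for destruction, was at 567 CPM in Reactivated Cubn-high cells and 107 CPM in EDG9.5 endoderm, and Cdk1 at 320 and 73.0 CPM. Of 19 glycolysis genes 9 were higher and none lower, with a median of 0.82, and the list summed to 10140 CPM in Reactivated Cubn-high cells and 3125 CPM in EDG9.5 endoderm. Cholesterol and fatty acid synthesis had 9 of 18 higher and none lower, with a median of 1.01, and Cyp51, a sterol demethylase, was at 427 and 170 CPM. Fewer members passed in S phase (5 of 18 higher), oxidative phosphorylation (4 of 20 higher) and amino acid transport and serine synthesis (6 of 17 higher and 1, Asns, lower). The medians of endoderm transcription factors, lysosomal genes and epithelial junction genes changed sign with TMM factors, and no direction is given for them.

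Several immediate early and feedback genes were lower. Egr1 was at 150 CPM in Reactivated Cubn-high cells and 1450.0 CPM in EDG9.5 endoderm, Fos at 51.4 and 562 CPM, and Spry2, an ERK feedback inhibitor, at 79.1 and 548 CPM. Of 15 immediate early genes 7 were lower and none higher, and 6 of 14 FGF and ERK feedback genes were lower and 3 higher. The higher ones were Fgf5, Fgf8 and Etv4, and Fgf5 had 90.8 CPM in Reactivated Cubn-high cells and 0 UMIs in EDG9.5 endoderm. Of the 3 laminin chains on the list, Lamb1 and Lamc1 passed 2-fold and Lama1 did not, at 609.7 CPM in Reactivated Cubn-high cells and 996 CPM in EDG9.5 endoderm. Lamb1 was at 628 CPM in Reactivated Cubn-high cells and 2094 CPM in EDG9.5 endoderm, and Lamc1 at 727 and 1501 CPM. Col4a1 and Sparc did not share this, with Col4a1 at 2263 and 2234 CPM and Sparc at 4721 and 4090.0 CPM. Of the 31 ER genes 22 were higher than in EDG9.5 and 1, Ddit3, was lower, with a median of 1.29.

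E5.5 Cubn-high cells, chosen by the same rule, were set against Reactivated Cubn-high cells. Of 14699 measured genes 3.03% were 2-fold higher and 2.28% lower in E5.5, the smallest shares of the comparisons with another stage or lineage. As CPM 446 were higher and 335 lower, and with median-of-ratios factors 388 were higher and 410 lower. The embryos were obtained differently, E5.5 by dissection and Reactivated by flushing, and that cannot be told apart from stage.

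The secreted products of visceral endoderm made up most of the higher genes named by the rule. Apoc2 had 1265 CPM in E5.5 cells, against 3.0 CPM in Reactivated Cubn-high cells, 422 times as much (247 to 793). For Apoa1 the values were 1369 CPM in E5.5 cells and 4.15 CPM in Reactivated cells, with an E5.5 over Reactivated ratio of 329.9 (209 to 557). Rbp4, the retinol carrier, was at 178 CPM in E5.5 and 0 UMIs in Reactivated, at least 257.5-fold higher when its 0 is replaced by a floor of 3 UMIs in the class. Apob, the scaffold of lipoproteins, was at 640.4 CPM in E5.5 and 17.3 CPM in Reactivated, and Sepp1, a selenium carrier, at 615 and 9.45 CPM. Of 19 measured lipoprotein and secreted genes 15 were higher in E5.5 and none lower, with a median of 1.94. Some were already present in Reactivated: Ttr, transthyretin, was at 8.59 CPM in EDG9.5 endoderm, 130 CPM in Reactivated and 1206 CPM in E5.5 Cubn-high cells, and Spink3 at 66.6, 667 and 2842 CPM.

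Imprinted growth genes were the other set, with 9 of 15 higher in E5.5 and none lower, and a median of 1.35. H19 was at 6785 CPM in E5.5 and 389 CPM in Reactivated Cubn-high cells. Peg10 was at 211 CPM in E5.5 and 0.461 CPM in Reactivated, 2 UMIs, and the ratio was 458 (127 to 3784). Igf2 was at 259 and 38.3 CPM, and Cdkn1c at 103 and 0.922 CPM. Of 14 BMP signalling genes 5 were higher in E5.5 (Smad1, Smad6, Id2, Id3 and Msx2) and none lower, with Id2 at 362 CPM in E5.5 and 83.5 CPM in Reactivated. Anterior visceral endoderm genes split, with 5 of 12 higher in E5.5 (Cer1, Sfrp1, Sfrp5, Otx2 and Gsc), 3 lower and a median of 0.76. Cer1 was at 38.5 CPM in E5.5 and 0.692 CPM in Reactivated Cubn-high cells. Lefty1 had 37.8 CPM in E5.5 against 199 CPM in Reactivated, Dkk1 had 110.2 against 376 CPM, and Hhex 53.7 against 198 CPM. Within E5.5, the median of the 12 for Cubn-high over Cubn-low cells was -1.18. Cer1 and Lefty1 were 2-fold lower in E5.5 Cubn-high than in E5.5 Cubn-low cells, and Dkk1 and Hhex were not. The list summed to 815 CPM in E5.5 Cubn-high and 2101 CPM in E5.5 Cubn-low cells, and the part of the Cubn limit in these values was not tested.

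Of the 8 genes lower in E5.5 that the rule named, 3 are ER genes. Derl3 was at 9.60 CPM in E5.5 and 231 CPM in Reactivated Cubn-high cells, which is 24.1-fold lower (20.8 to 27.9). Sdf2l1 was at 88.9 and 625 CPM, and Creld2 at 189 and 986 CPM. Of the 31 ER genes 13 were lower in E5.5 and none higher, with a median of -0.93. Because the ER list was drawn up after these named genes were seen, nothing is read from its counts in any comparison. Within E5.5 itself, Derl3 was at 9.60 CPM in Cubn-high and 9.01 CPM in Cubn-low cells, and Hyou1 at 65.2 and 61.2 CPM, while Lrp2 was at 1390.0 and 502 CPM. Other lower genes were Nefl, a neurofilament protein, at 13.9 CPM in E5.5 and 222 CPM in Reactivated, Hopx at 24.95 and 240 CPM, and Dnmt3l, a cofactor of DNA methyltransferases, at 101 and 565 CPM. G2 and M phase genes had no member past 2-fold in either direction, with a median of 0.10. The comparisons above all use the same Reactivated Cubn-high sum, so they are not independent of each other.

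**Figure D3:**
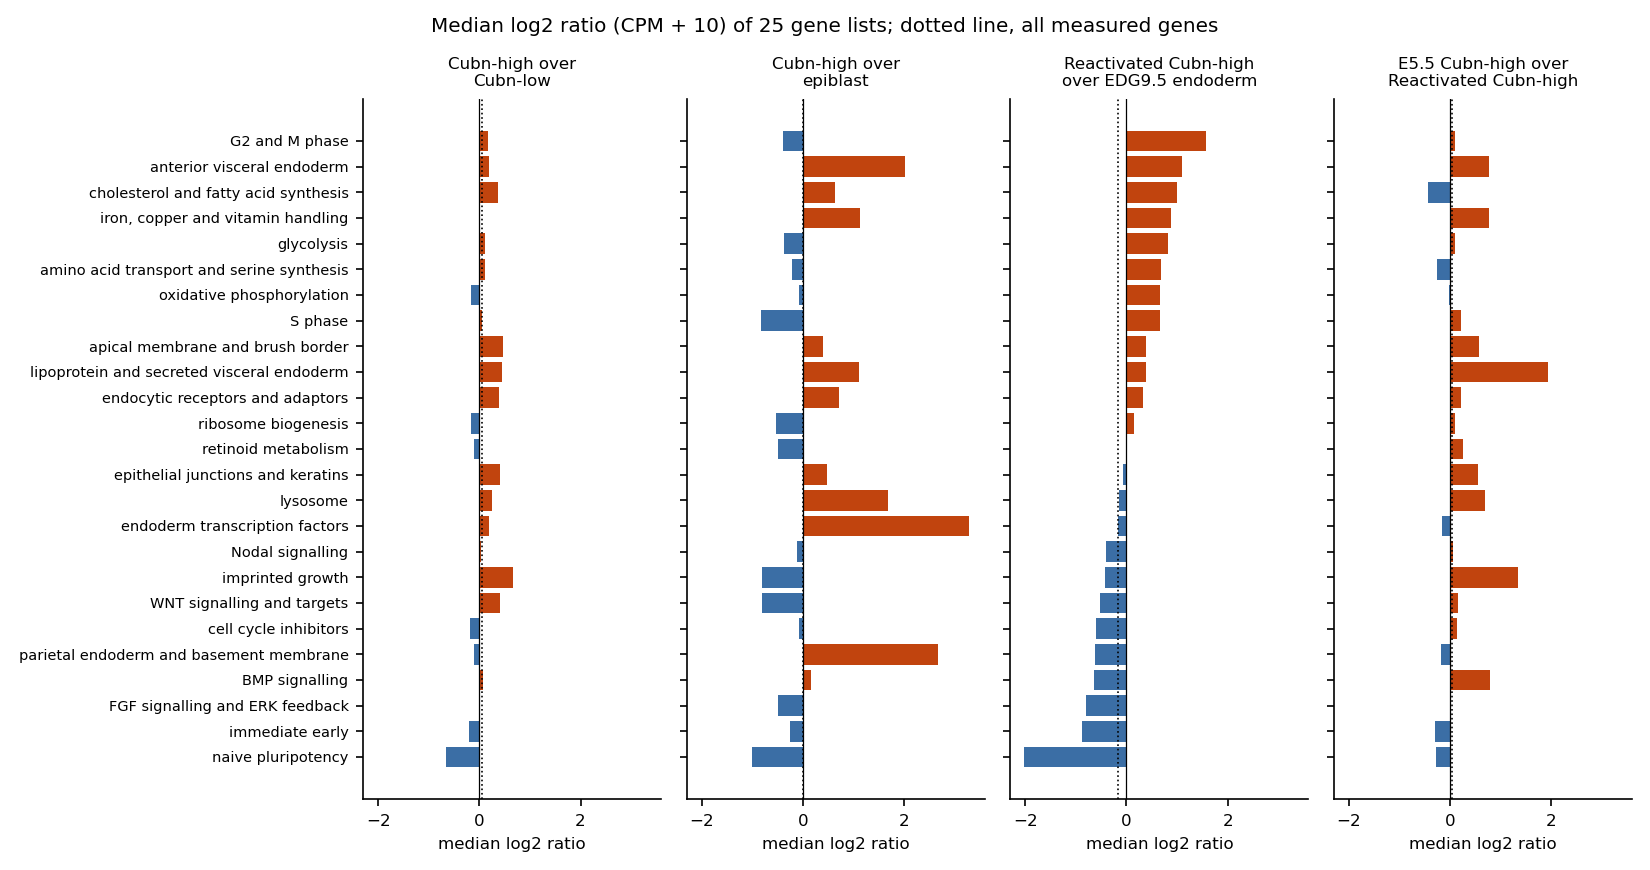
Median log2 ratio (CPM + 10) of the measured members of 25 gene lists in 4 comparisons, with the median of all measured genes as a dotted line. Naive pluripotency is lowest in Cubn-high over EDG9.5 endoderm at -2.02, where G2 and M phase is highest at 1.57, and lipoprotein and secreted genes are highest in E5.5 over Reactivated at 1.94.

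The Cubn-high cells also differ among themselves. For this, 272 of them were thinned to 5000 UMIs, and genes were ranked by their variance over mean, which was 1.09 for the median of 1850 genes. The metallothioneins Mt1 (7.73) and Mt2 (7.72) ranked first, followed by Lefty1 (5.44), H19 (4.76), Hspa5 (4.25), Lamc1 (3.77), Foxq1 (3.46), Hsp90b1 (3.36), Srgn (3.21), Lrp2 (3.12), Pga5 (3.10) and Lama1 (3.01). Correlations across cells of 1 library are descriptions, since cells share the library and the thinning. On log values Mt1 and Mt2 had a Pearson r of 0.69 and Hspa5 and Hsp90b1 one of 0.60. Of 1999 genes, the pattern nearest to that of Cubn was Lrp2 at 0.45, followed by Hsp90b1 at 0.34, Mttp at 0.30 and Cltc at 0.29. Amn, the partner of cubilin, was at 0.14.

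A further gradation ran along the laminin genes. Cells were split after these values were seen, by their thinned UMIs of Lama1 and Lamc1, laminin chains of the basement membrane: 74 cells with at least 10 are called laminin-high and 107 with at most 3 laminin-low, and 91 lay between. The median was 5 UMIs and the highest cell had 35. Lamb1, a chain that the split did not use, was at 1168 CPM in laminin-high and 323 CPM in laminin-low cells. Plod2, which hydroxylates lysines of collagen, was at 1016 and 213 CPM, Pth1r, a parathyroid hormone receptor used as a parietal endoderm marker, at 362 and 76.6 CPM, and Col4a2 at 1300.0 and 527 CPM. In laminin-low cells, Fgf5 was higher, at 5.41 CPM in laminin-high and 168 CPM in laminin-low cells. Lhx1 was at 5.41 and 150 CPM, Has2 at 10.8 and 192 CPM, Ttr at 21.6 and 258 CPM, Cyp26a1 at 35.1 and 290 CPM and Lefty1 at 37.8 and 308 CPM. The receptor genes differed by less than 2-fold along this gradation. Cubn was at 1559 CPM in laminin-high and 1669 CPM in laminin-low cells, Lrp2 at 1224 and 1531 CPM and Amn at 878 and 1207 CPM. Depth was alike, with a median of 14694 UMIs in laminin-high and 15969 in laminin-low cells.

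**Figure D4:**
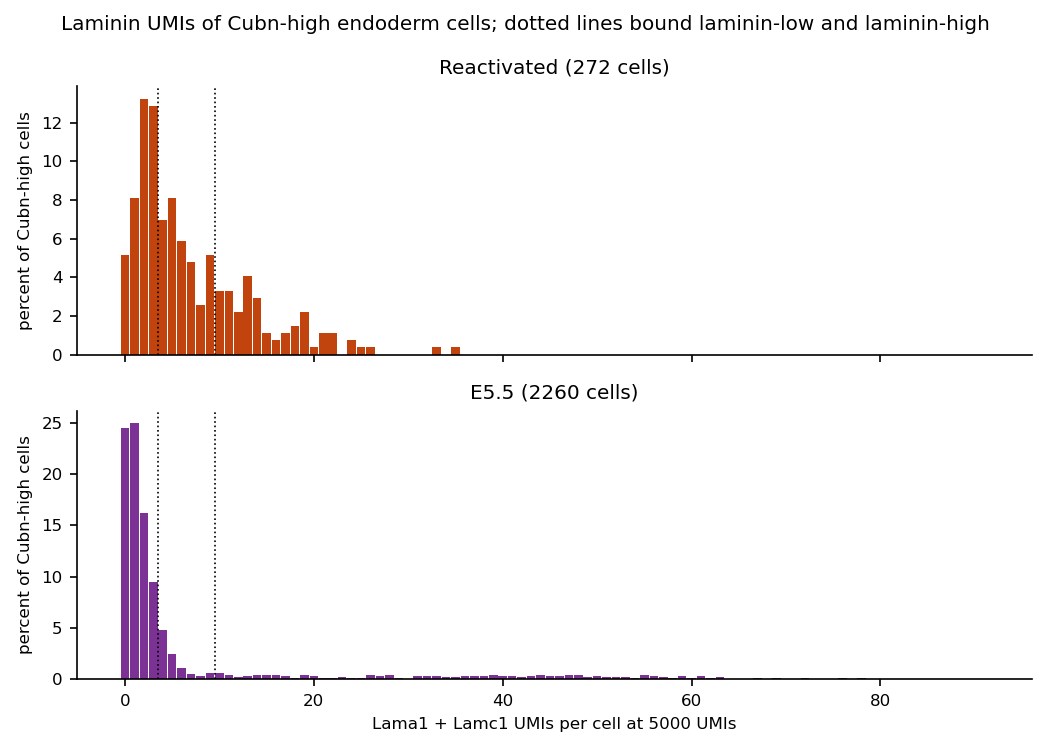
Percent of Cubn-high cells (y axis) by their UMIs of Lama1 and Lamc1 after thinning to 5000 UMIs (x axis), with dotted lines at the limits of the laminin-low and laminin-high groups. Reactivated cells are most frequent at 2 UMIs (36 cells) and thin out unevenly above, with 7 cells at 8 UMIs and 14 cells at 9. Their median is 5 and the highest cell is at 35. E5.5 has a median of 2 and a broad second group of cells, with 260 of 2260 cells at 20 or more. Counts there do not fall steadily, with 2 cells at 21 UMIs and 8 cells at 44 UMIs.

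E5.5 Cubn-high cells, split the same way, gave 341 laminin-high and 1699 laminin-low cells. In E5.5 260 cells had 20 or more of these UMIs, against 13 of 272 cells in Reactivated, so the 2 laminin-high groups reach unlike levels. Leaving out Lama1 and Lamc1, 3382 genes were measured in both libraries. Of the 62 that were 2-fold higher in laminin-high cells of Reactivated, 51 were also higher in those of E5.5 and 32 by 2-fold, while 45.2% of all 3382 were higher in E5.5 and 4.82% by 2-fold. Of the 91 that were 2-fold lower in Reactivated, 84 were lower in E5.5 and 59 by 2-fold, while 54.8% of all were lower and 5.38% by 2-fold. Some markers of parietal endoderm had UMIs mainly in E5.5. Fst, follistatin, was at 2.7 CPM in laminin-high and 5.61 CPM in laminin-low cells of Reactivated, and at 614 and 2.83 CPM in those of E5.5. Thbd, thrombomodulin, was at 0 UMIs in both groups of Reactivated, and at 65.7 and 0.353 CPM in E5.5. Srgn, the proteoglycan serglycin, had opposite directions: 1851 CPM in laminin-high and 3484 CPM in laminin-low cells of Reactivated, and 4216 and 1710.0 CPM in E5.5. Across cells Lamc1 and Srgn had a Pearson r of -0.50 in Reactivated and 0.54 in E5.5.

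**Figure D5:**
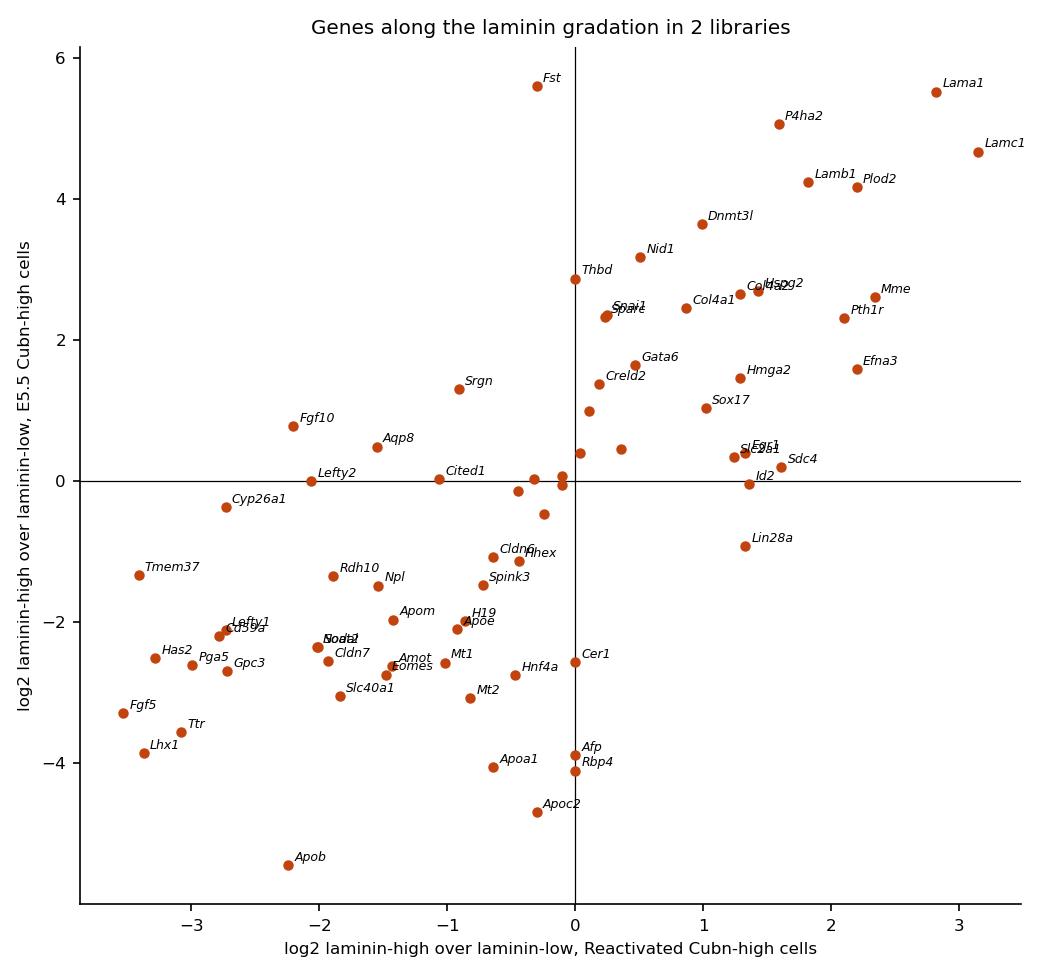
Log2 ratio (CPM + 10) of laminin-high over laminin-low Cubn-high cells in Reactivated (x axis) and in E5.5 (y axis), 1 point for each of the named genes and list members chosen after seeing their values; Lama1 and Lamc1 define the split, and genes at 0 on the x axis such as Afp, Rbp4, Cer1 and Thbd had no UMI in either group of thinned Reactivated cells. Most genes lie at the lower left and the upper right, and Srgn (-0.91 and 1.30), Fgf10 (-2.20 and 0.78), Aqp8 and Fst are among those at the upper left.

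Lefty1, a secreted inhibitor of Nodal that marks anterior visceral endoderm, was found in part of the Cubn-high cells. After thinning, 190 of 272 cells had no Lefty1 UMI, 82 had at least 1, and 30 had at least 3, with a highest value of 16. At their own depth 114 cells had one. The 30 cells with at least 3 were compared with the other 242, a split chosen after these values were seen. Foxq1 was at 1527 CPM in the 30 cells and 631 CPM in the others, and Lefty2 at 160 and 42.1 CPM. Lhx1, a LIM transcription factor, was at 147 and 66.1 CPM, and Otx2 at 46.7 CPM (7 UMIs) and 7.44 CPM. Hesx1, another gene of the anterior list, was at 13.3 CPM (2 UMIs) in the 30 cells and 44.6 CPM in the others, with overlapping counting intervals. Dkk1 had 467 CPM in the 30 cells against 384 CPM in the others, and Hhex 227 against 169 CPM, with overlapping counting intervals. Lamc1 was at 313 CPM in the 30 cells and 800.0 CPM in the others, and Creld2 at 507 and 1069 CPM. Cer1, another marker of anterior visceral endoderm, had no UMI in either group after thinning. Cubn was at 1533 CPM in the 30 cells and 1622 CPM in the others, and the counting intervals overlap (1342 to 1745 and 1551 to 1696 CPM).

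Cell cycle genes varied as well. The 22 G2 and M phase genes summed to a median of 18 UMIs per thinned Cubn-high cell, against 19 in Cubn-low, 24 in epiblast and 10 in trophoblast cells of Reactivated. The medians were 2 in EDG7.5 endoderm, 2 in EDG9.5 endoderm, 18 in Reactivated Cubn-high and 18 in E5.5 Cubn-high cells. At least 10 such UMIs were found in 76.5% of Cubn-high cells (71.0 to 81.4%), against 20.6% of EDG9.5 endoderm cells (15.6 to 26.4%).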

How the data were processed

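Counts of UMIs per gene and cell were deposited by the authors for each library as whole numbers. Per the submitters' processing notes, the tools were featureCounts 1.6.4, Subread, STAR 2.7.1a and UMI-tools 1.0.1, with mm10. Not given in the sources used here are the annotation, the strand setting and how barcodes were selected. The members and the gene lists were chosen with earlier results of these data known. The UMIs of all cells in a class were added up and scaled to CPM, and 10 CPM was added before log2 ratios were taken for genes with at least 10 UMIs in both sums together. Named genes are the 12 highest and 12 lowest ratios of Cubn-high over Cubn-low and the 8 highest and 8 lowest of each other comparison, taken from genes that have 50 UMIs or more in both sums together and reach 100 CPM in either class; predicted, haemoglobin, mitochondrially encoded and ribosomal protein genes were left out. To these were added the rule genes, the 5 markers, the 12 most variable genes and up to 4 members of each of 25 lists. List members named beyond these, the 31 ER genes, and the laminin and Lefty1 splits were chosen after their values were seen. Intervals are exact Poisson (CPM), Clopper-Pearson (shares) and conditional binomial (ratios) at 95%. Cells were thinned with a fixed seed. Doublets were called with Scrublet through scanpy 1.11.5 and kept. TMM factors came from edgeR 4.0.16; other steps used python 3.11.15, numpy 2.4.6, scipy 1.17.1, pandas 2.3.3 and matplotlib 3.10.9. The ratio and interval code was tested on simulated data. Of 25437 gene names 21344 match a RefSeq symbol. C1qb, Emcn, Hbb-bh1, Ltf, Msmo1 and Sprr2f of the lists had no entry under these names. With 1 library per stage no test across samples was made.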

Additional observations from a re-analysis of the deposited data

Results flagged for a closer look

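The genes below differed in direction between Reactivated and E5.5 by set sizes, with 1 library per stage and no test of the difference. For the Cubn split both log2 ratios had to pass 1, and for the laminin split both had to pass 0.5, with at least 50 UMIs in each library. The laminin split was screened only among the genes listed for it after their values were seen, so unlisted genes of opposite sign may exist. Some listed genes of opposite sign did not meet these sizes, such as Aqp8 (-1.55 in Reactivated and 0.49 in E5.5 along the laminin split). Fgf5 had a log2 ratio of 1.14 for Cubn-high over Cubn-low cells of Reactivated, at 90.8 CPM in Cubn-high and 35.9 CPM in Cubn-low cells, while E5.5 had 96.5 CPM in Cubn-high and 210 CPM in Cubn-low cells. Tbx3 had a log2 ratio of -1.13 in Reactivated, and in E5.5 it was at 129 CPM in Cubn-high and 58.3 CPM in Cubn-low cells.

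For laminin-high over laminin-low Cubn-high cells, Fgf10 had a log2 ratio of -2.20 in Reactivated and 0.78 in E5.5. Lin28a had 1.33 in Reactivated and -0.92 in E5.5. Srgn, which is one of the 7 endoderm genes of the class rule, had -0.91 in Reactivated and 1.30 in E5.5.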

How the results depend on the processing

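In stage order with E5.5 last, the share of Cubn-high cells was 2.58%, 5.05%, 95.1% and 91.3% with a limit of 5 Cubn UMIs, and 2.23%, 6.54%, 92.8% and 92.5% with a limit of 500 CPM. With a limit of 20 UMIs EDG9.5 had 0.689%, Reactivated 51.2% and E5.5 37.0%, and in thinned cells 11.8%, 82.8% and 85.5%. For Cubn-high over Cubn-low cells, 1202 genes were higher and 600 lower with 1 CPM added, and 3 and 25 with 50 CPM. The counts were 594 and 232 in thinned cells, and 1 and 16 with a limit of 20 Cubn UMIs. Lower genes numbered 52 with at least 50 UMIs and 234 as a mean over cells, and 282 were higher with the limit of 500 CPM. Without the barcode rich in collagen, chosen after seeing the data, 64 were lower, and the log2 ratios of Col1a1 (0.03), Col1a2 (0.07), Dcn (0.03), Lgals1 (0.03) and Vim (0.51) changed sign, since that barcode held most of their Cubn-low UMIs. Over epiblast, 2558 were higher and 2180 lower with 1 CPM, and 496 and 340 with 50 CPM. Over EDG9.5 endoderm the counts were 1363 and 3217 with 1 CPM, 300 and 335 with 50 CPM, 1170 and 888 with TMM factors, and 1240 and 845 with median-of-ratios factors. For E5.5 over Reactivated they were 1485 and 898 with 1 CPM, and 118 and 98 with 50 CPM. Beyond the added CPM and the left-out barcode, the cause of these shifts was not tested. Limiting both E5.5 and Reactivated to cells low in laminin, or EDG9.5 to cells of at least 5000 UMIs, also chosen after seeing the data, kept the counts within 1.5 times. No paired analysis was possible because each stage is 1 library.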

Other observations

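At least 1 Xist UMI was found in 107 of 273 Reactivated Cubn-high cells and a UMI of a Y-linked gene in 103, with both in 5 cells. The highest Xist value was 7 UMIs in a Reactivated Cubn-high cell and 26 UMIs in an EDG9.5 endoderm cell, although the Reactivated cells were deeper. Xist overlaps its antisense gene Tsix, and counts of the pair cannot be told apart without the strand setting.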
